A study of Mus musculus with 27 samples.

Results

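The genes described here make nicotinamide adenine dinucleotide (NAD) from tryptophan along the kynurenine pathway, from nicotinic acid, or from recycled nicotinamide. They were Afmid, Kmo, Kynu, Haao, Qprt, Acmsd, Nadsyn1, Nampt and Naprt, chosen by symbol from the 19392 genes of the expression table, and all 9 were above 0 FPKM (a count of sequenced fragments corrected for transcript length and library size) in at least 3 kidneys, as were 18188 genes in all. RNA-Seq was performed on the left kidneys of 27 wild-type C57BL/6 mice, 1 kidney per mouse and 3 mice at each of 9 ischemia times. In the clamped mice the right kidney was removed. Whether it was also removed in the sham mice is not stated separately in the sources used here. If it was not, comparisons with 0 min also differ in this. The left renal pedicle was then clamped for 16, 18, 20, 22, 24, 26, 28 or 30 min, or for 0 min in the sham group, on a warmed platform, and the kidney was taken after 24 h of reperfusion. Sex and age are not given in the sources used here. Each value of a clamped mouse thus describes a single remaining kidney, and all values are from 1 time after reperfusion.

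In the de novo route, tryptophan is opened by a dioxygenase to formylkynurenine, Afmid releases kynurenine, and Kmo, Kynu and Haao carry it to an unstable semialdehyde. That semialdehyde closes by itself to quinolinate, which Qprt turns into nicotinic acid mononucleotide, unless Acmsd first removes it towards glutarate and full oxidation. Naprt makes the same mononucleotide from nicotinic acid, Nadsyn1 completes NAD in both of these routes, and Nampt starts the separate salvage route from nicotinamide. The proximal tubule of the kidney is known, beside the liver, for running the whole de novo route.

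On assembly GRCm38.p6 the 9 genes lie at 9 separate loci on chromosomes 1, 2, 7, 11, 12, 15 and 17, with Acmsd (chr1:127729413-127767564) and Kmo (chr1:175632193-175660853) on chromosome 1 and Qprt (chr7:127107770-127122029) and Nadsyn1 (chr7:143795589-143822862) on chromosome 7. Haao lies at chr17:83831348-83848981, Afmid at chr11:117825503-117839908, Kynu at chr2:43555258-43683048, Nampt at chr12:32820335-32853369 and Naprt at chr15:75890963-75894481. The RefSeq promoter table of the same assembly, which gives 250 bases before and 50 after a start, was used for Haao, Nampt, Afmid, Kmo, Qprt and Nadsyn1. The bases before the start are shown for Haao, one of the genes whose levels dropped furthest at the longest ischemia times relative to 16 to 26 min, and for Nampt, whose level did not follow it. Capitals mark AGGTCA, the core letters of nuclear receptor sites, or its reverse complement TGACCT, and ATTAAC, the reverse complement of GTTAAT, core letters of sites of the tubule and liver factor HNF1. The Haao window, chr17:83846813-83847040 on the minus strand, stops 22 bases short of the start where annotated UTR begins. It lies inside the Haao locus given above, so the start it precedes is not the upstream end of that locus. The Nampt window is chr12:32820085-32820334 on the plus strand, just before the Nampt locus.
Haao: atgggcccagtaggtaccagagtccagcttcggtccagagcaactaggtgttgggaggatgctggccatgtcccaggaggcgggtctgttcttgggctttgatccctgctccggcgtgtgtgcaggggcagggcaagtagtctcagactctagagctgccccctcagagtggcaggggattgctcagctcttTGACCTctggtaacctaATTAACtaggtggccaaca
Nampt: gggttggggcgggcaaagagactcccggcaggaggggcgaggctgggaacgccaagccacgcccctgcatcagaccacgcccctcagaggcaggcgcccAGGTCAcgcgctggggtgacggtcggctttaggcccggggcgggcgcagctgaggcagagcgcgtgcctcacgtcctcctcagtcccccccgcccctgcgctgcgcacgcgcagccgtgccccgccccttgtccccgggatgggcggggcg
Both strands of the 300-base windows were searched for 5 motifs, and matches were found in 2 of the 6 windows. Haao held TGACCT from 58 bases and ATTAAC from 41 bases before the start used here, and Nampt held AGGTCA from 151 bases before. Of the 32851 promoters in the table, 16.3% held AGGTCA and 7.1% held GTTAAT in either direction. No match to TATAAA (in 13.6% of all promoters), CCAAT (37.4%) or CACGTG (7.15%) was found in the 6 windows, and the windows of Afmid, Kmo, Qprt and Nadsyn1 held none of the 5 motifs. AGGTCA stood before the start used for a gene that dropped and before that of one that did not.

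The 27 columns summed to 512453 to 554036 FPKM and held 16498 to 16904 genes above 0. Read depth is not given with FPKM values; a comparison of 42 low genes placed the kidneys within 0.98 to 1.04 of each other. The 8 proximal tubule markers were all detected, with summed levels of 4746 to 5203 FPKM at 0 min. At 0 min kidneys 2 and 3 stood apart from kidney 1, with sums of 1476 and 993 FPKM over 8 interferon response genes against 61.8 FPKM, and the other 24 kidneys lay between 23.1 and 78.4 FPKM. At 16 min kidney 3 held 35.1 FPKM of the tubular injury marker Havcr1 against 332 and 574 FPKM in kidneys 1 and 2. At 30 min kidney 3 had a summed loop and distal tubule level of 2401 FPKM against 634 and 654 FPKM.

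After 28 and 30 min of ischemia, Haao, Acmsd, Afmid and Kmo were lower than after 16 to 26 min by more than 2-fold. Naprt, Nadsyn1, Kynu and Qprt were lower by less, and Nampt alone did not differ detectably. A gene was called when it changed more than 2-fold with a Benjamini-Hochberg adjusted p under 0.05 over all 18188 genes tested by limma on quantile normalized log2(FPKM + 1), and fold changes below are on that scale. Against 0 min, 3 of the 9 genes were called lower at 28 min (Haao, Kmo and Afmid), where 4.21% of all genes tested were called lower. Another 2, Acmsd and Kynu, were called with them at 30 min, which makes 5 of 9 against 5.59% of all genes. From 16 to 26 min none of the 9 was called, where 2.25% (16 min), 3.06% (18 min), 2.51% (20 min), 3.29% (22 min), 3.12% (24 min) and 3.77% (26 min) of all genes were. Between 3 and 5 of the 9 had an unadjusted p under 0.05 at each of these times, where 31.9%, 38.1%, 35.2%, 39.2%, 38.4% and 39.8% of all genes did. The 8 comparisons share the 3 kidneys at 0 min and are not independent of each other. In these whole-kidney samples, fewer cells of a type and less RNA per cell cannot be told apart.

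**Figure D1:**
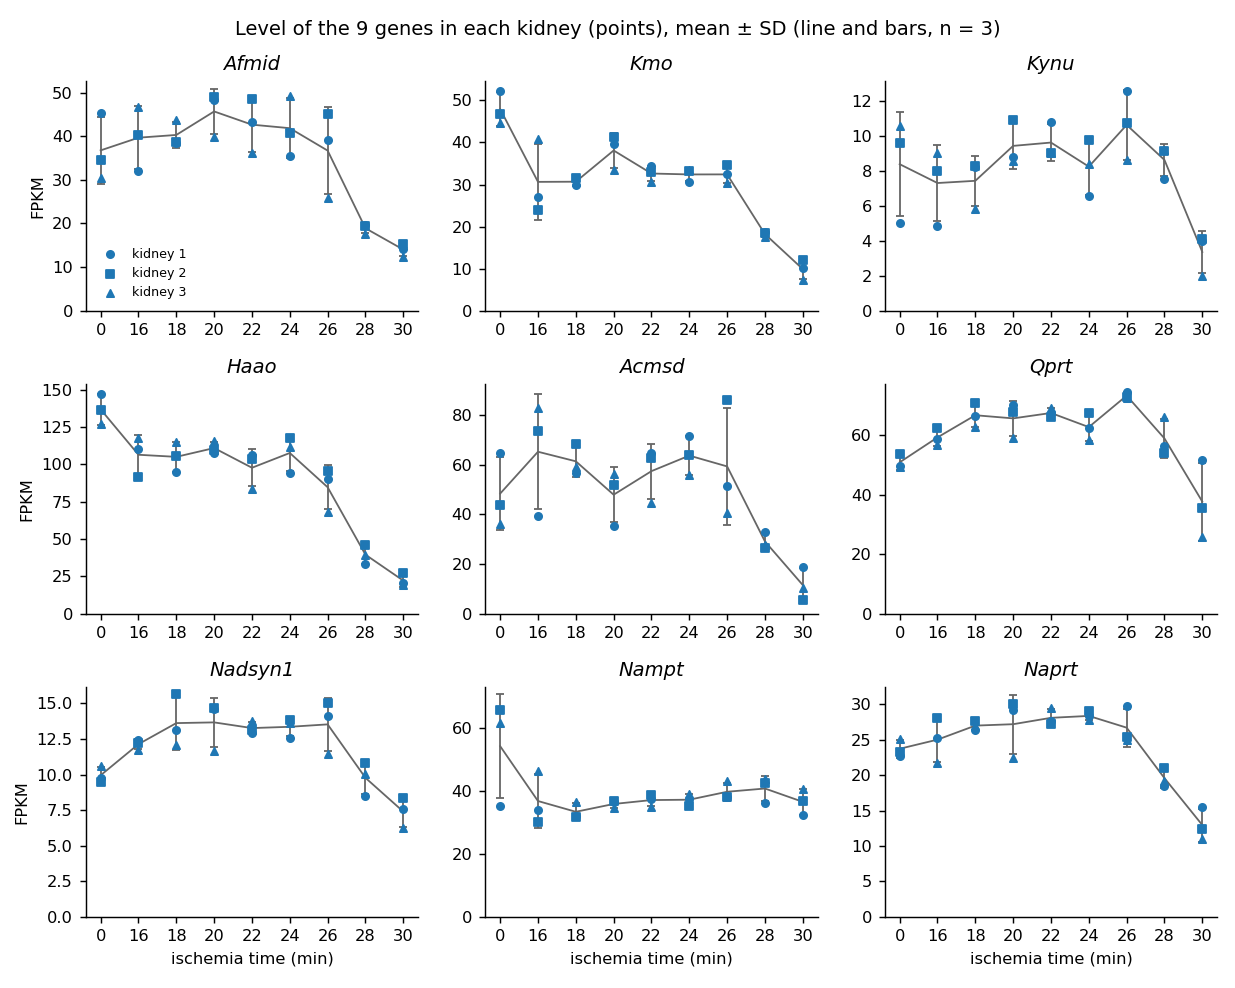
Level of each of the 9 genes in FPKM (y axis, from 0) against ischemia time in minutes (x axis); points are the 3 kidneys at each time, by replicate number, and line and bars give their mean ± SD. Haao fell from 126.74 to 147.22 FPKM at 0 min to 18.97 to 26.99 FPKM at 30 min, and Nampt stayed between 30.12 and 46.47 FPKM in every clamped kidney.

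Afmid, the arylformamidase that frees kynurenine, was at 45.3, 34.6 and 30.4 FPKM in kidneys 1, 2 and 3 at 0 min. In the 18 kidneys from 16 to 26 min it ranged from 25.8 to 49.2 FPKM with a median of 40.5 FPKM. It was at 19.6, 19.4 and 17.7 FPKM at 28 min and at 14.2, 15.4 and 12.4 FPKM at 30 min. All 6 kidneys at the 2 longest times lay below the other 21, and 7.19% of all genes tested had these 6 kidneys below all 18 of 16 to 26 min. Its log2 fold change against 0 min was -1.03 ± 0.19 (SE, n = 3 per time, limma adjusted p = 0.000135) at 28 min and -1.40 ± 0.19 (adjusted p = 2.82e-06) at 30 min. The call at 28 min was close to the threshold: without quantile normalization the log2 fold change was -0.91, with values rescaled to a constant sum it was -0.94, without 0 min kidney 1 it was -0.87, and without 28 min kidney 3 it was -0.98. Of the Afmid exon bases in GENCODE M21, 44.2% are shared with Gm20708, a transcript on the same strand that is not in the expression table, so reads there cannot be assigned to Afmid alone.

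Kmo encodes the mitochondrial monooxygenase that hydroxylates kynurenine. The sham kidneys held 52.4, 46.8 and 44.7 FPKM of Kmo, and the 18 kidneys from 16 to 26 min held 24.0 to 41.3 FPKM (median 32.6 FPKM). The level was 18.7, 18.5 and 17.5 FPKM after 28 min and 10.2, 12.1 and 7.29 FPKM after 30 min. The gene thus stood at 4 levels without overlap, with every clamped kidney below every sham kidney. The share of all genes with this whole pattern was not counted, only shares for its parts. Separation of the longest times was common, as 16.4% of all genes tested had every 30 min kidney below every 28 min kidney. The kidneys of both times lay below all those of 16 to 26 min in 7.19% of all genes tested. Of all genes tested, 7.54% (16 min) to 14.4% (22 min) had all 3 kidneys below the sham kidneys at a time from 16 to 26 min. The log2 fold change against 0 min was -1.46 ± 0.16 (limma adjusted p = 4.18e-07) at 28 min and -2.27 ± 0.16 (adjusted p = 7.94e-10) at 30 min. At the shorter times it was between -0.73 (16 min, adjusted p = 0.00389) and -0.40 (20 min, adjusted p = 0.0804), under the fold threshold throughout. The highest of the 16 min values, 40.9 FPKM, was in kidney 3, the kidney with the low Havcr1. Without that kidney the log2 fold change at 16 min was -0.97. With sham kidney 1 as the only reference the values at 28 and 30 min were -1.60 and -2.40, both called.

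Kynu, the kynureninase that forms hydroxyanthranilate, was the least abundant of the 9 genes per length. At 0 min it was at 4.99, 9.58 and 10.53 FPKM, with the low value in the kidney without high interferon response genes. From 16 to 26 min, without high interferon response genes, it ranged from 4.85 to 12.5 FPKM (median 8.68 FPKM). At 28 min it was at 7.52, 9.13 and 9.17 FPKM, inside the range of the shorter times. At 30 min it was at 4, 4.09 and 1.96 FPKM, below every other kidney. Of all genes tested, 21.2% had every 30 min kidney below every sham kidney and 16.4% below every 28 min kidney. The log2 fold change was -0.04 (95% interval -0.56 to 0.48) at 28 min against 0 min and -1.20 ± 0.25 (limma adjusted p = 0.000395) at 30 min. The 30 min call against 0 min was lost without 30 min kidney 3 (-0.93) and with sham kidney 1 as the only reference (-0.62, adjusted p = 0.13). Between 28 and 30 min Kynu fell by 1.15 ± 0.25 on the log2 scale (adjusted p = 0.00515).

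Haao encodes the dioxygenase that opens the ring of hydroxyanthranilate, and it was the most abundant of the 9 genes at 0 min. It was at 147, 137 and 127 FPKM at 0 min and at 67.9 to 118 FPKM (median 106 FPKM) from 16 to 26 min. At 28 min its level was 33.3, 45.7 and 39.6 FPKM, and at 30 min it was 20.4, 26.99 and 19.0 FPKM. No kidney of the 2 longest times overlapped those of 16 to 26 min, which in turn lay below the sham kidneys. Of all genes tested, 7.19% had the kidneys of the 2 longest times below those of 16 to 26 min. At a single time from 16 to 26 min, 7.54% (16 min) to 14.4% (22 min) had every kidney below the sham kidneys. The share with all of these times below the sham kidneys was not counted. The log2 fold change against 0 min was -1.80 ± 0.15 (limma adjusted p = 1.39e-08) at 28 min and -2.60 ± 0.15 (adjusted p = 6.43e-11) at 30 min. At 26 min it was -0.70 ± 0.15 (adjusted p = 0.00124). With sham kidney 1 as the only reference Haao was at -1.92 and -2.71 at 28 and 30 min, both called. The mean level was 28.9% of the sham mean at 28 min and 16.2% at 30 min.

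Acmsd, the decarboxylase that draws intermediates away from NAD, had the largest SE of the 9 genes in the fit, 0.34 on the log2 scale against 0.10 to 0.25. It was at 64.9, 44.0 and 36.2 FPKM at 0 min and at 35.4 to 85.9 FPKM (median 57.8 FPKM) from 16 to 26 min. It was at 33.1, 26.4 and 27.8 FPKM at 28 min and at 18.8, 5.60 and 10.2 FPKM at 30 min. The 6 kidneys of the 2 longest times lay below all others, where 7.19% of all genes tested had them below those of 16 to 26 min. Those of 30 min lay below those of 28 min, as in 16.4% of all genes tested. Its log2 fold change against 0 min was -0.80 ± 0.34 (limma adjusted p = 0.0615) at 28 min, which was not called, and -2.16 ± 0.34 (adjusted p = 2.23e-05) at 30 min. Between 28 and 30 min it fell by 1.36 ± 0.34 on the log2 scale (adjusted p = 0.0132).

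Qprt, the entry from quinolinate into the NAD nucleotides, was at 49.5, 53.8 and 49.5 FPKM at 0 min. From 16 to 26 min it was at 56.7 to 74.8 FPKM, above every sham kidney. At 28 min it was at 56.5, 54.1 and 66.3 FPKM, still above every sham kidney, and at 30 min it was at 51.8, 35.5 and 25.8 FPKM, which overlapped them. The log2 fold change against 0 min was 0.46 ± 0.15 (limma adjusted p = 0.0233) at 26 min, 0.13 (adjusted p = 0.515) at 28 min and -0.52 ± 0.15 (adjusted p = 0.00542) at 30 min, and Qprt was not called in any comparison. Without 30 min kidney 3, which held the lowest Qprt, the 30 min value was -0.28 (adjusted p = 0.0483). Higher values in all 3 clamped kidneys were common: 20.6% of all genes tested at 16 min and 35.5% at 28 min had all 3 kidneys above all 3 sham kidneys.

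Nadsyn1, the synthetase that amidates the last intermediate to NAD, kept a similar course at a lower level. The sham kidneys held 9.48 to 10.6 FPKM and those of 16 to 26 min 11.4 to 15.7 FPKM, against 8.49 to 10.8 FPKM after 28 min and 6.21 to 8.38 FPKM after 30 min. Its log2 fold change against 0 min was 0.33 ± 0.11 (limma adjusted p = 0.0409) at 20 min, -0.15 (adjusted p = 0.283) at 28 min and -0.50 ± 0.11 (adjusted p = 0.000892) at 30 min, and without 30 min kidney 3 it was -0.38 at 30 min (adjusted p = 0.00925). Naprt, which opens the route from nicotinic acid, was at 22.7 to 25.1 FPKM at 0 min, 21.7 to 30.0 FPKM from 16 to 26 min, 18.5 to 21.1 FPKM at 28 min and 10.9 to 15.5 FPKM at 30 min. Its log2 fold change was -0.40 ± 0.10 (adjusted p = 0.00347) at 28 min and at 30 min it was -0.93 ± 0.10 (adjusted p = 3.2e-07), just short of the fold threshold, and without 30 min kidney 1 it was -1.05 and passed. Naprt shares 11.8% of its exon bases with Eef1d on the same strand. Neither gene was called in any comparison of the full set of kidneys.

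Nampt, the rate-limiting enzyme of salvage from nicotinamide, was at 35.2, 65.8 and 61.8 FPKM at 0 min. The 2 high values belonged to the sham kidneys with high interferon response genes. From 16 to 26 min it was at 30.1 to 46.5 FPKM (median 36.6 FPKM), and the 3 kidneys of 28 min held 36.3, 42.5 and 43.7 FPKM. Those of 30 min held 32.5, 36.7 and 40.5 FPKM. The sham kidney without high interferon response genes lay inside the range of the clamped kidneys. With all 3 sham kidneys the log2 fold change against 0 min ran from -0.72 (18 min, limma adjusted p = 0.00424) to -0.46 (28 min, adjusted p = 0.0347), under the fold threshold at every time. With sham kidney 1 as the only reference it was -0.05 at 16 min and -0.01 at 30 min, and it turned to 0.07 and 0.09 at 26 and 28 min. That single kidney was assumed to vary like the other groups.

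**Figure D2:**
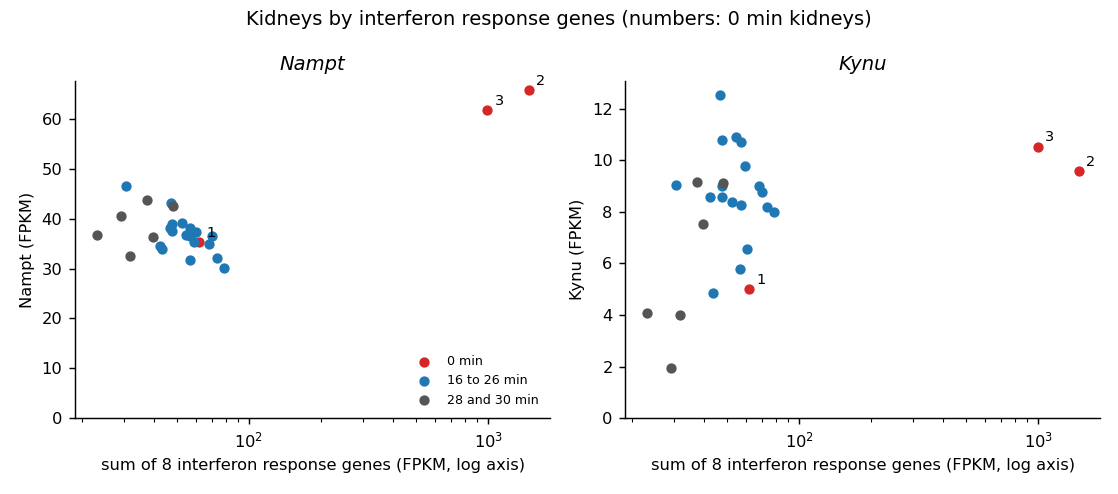
Level of Nampt and of Kynu in FPKM (y axes, from 0) against the summed level of 8 interferon response genes in the same kidney (x axes, FPKM, log scale), with the 0 min kidneys numbered. Sham kidneys 2 and 3, at sums of 1476 and 993 FPKM, carry the highest Nampt levels (65.8 and 61.8 FPKM), and sham kidney 1 sits among the clamped kidneys. Kynu does not separate in this way. Clamped kidneys, at sums of 78.4 FPKM or less, reach 12.54 FPKM of Kynu, against 9.58 and 10.53 FPKM in sham kidneys 2 and 3.

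Kidneys 2 and 3 at 0 min also differed from kidney 1 in Acmsd, lower at 44.0 and 36.2 FPKM against 64.9 FPKM, and in Afmid, lower at 34.6 and 30.4 FPKM against 45.3 FPKM. With sham kidney 1 alone, the log2 fold changes at 28 min were -1.34 for Afmid and -1.26 for Acmsd (adjusted p = 0.000595 and 0.0511). Sham kidney 3 also had the highest tubular injury sum at 0 min, 86.9 FPKM against 14.8 and 12.4 FPKM in sham kidneys 1 and 2. Its proximal tubule sum was the lowest of its group, 4746 FPKM against 5203 and 5098 FPKM. That kidney held the lowest Afmid, Acmsd, Kmo and Haao of its group and the highest Kynu, Nadsyn1 and Naprt. The part of the interferon response or of tubular injury in these levels was not tested.

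**Figure D3:**
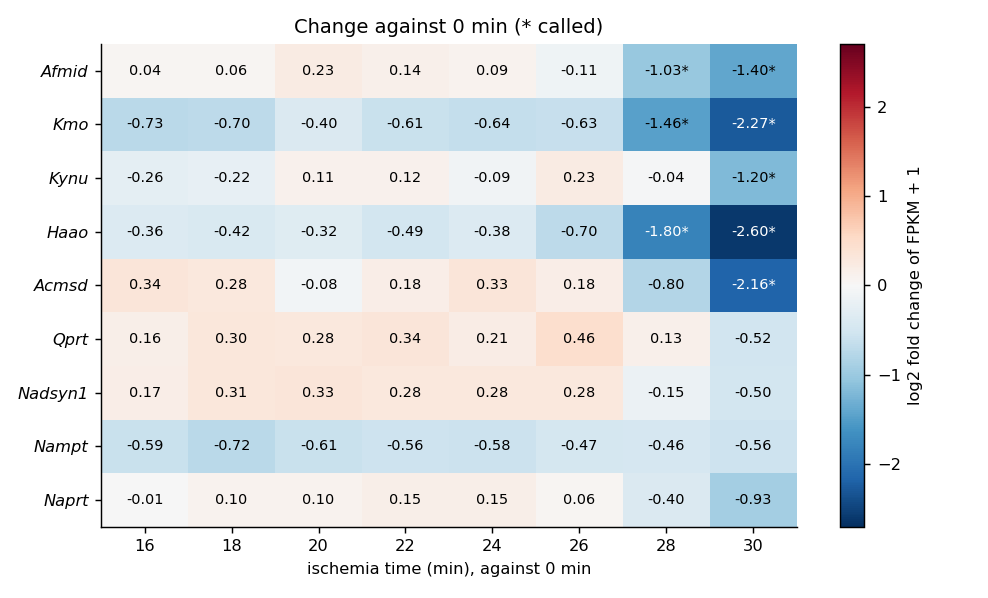
Log2 fold change of FPKM + 1 against 0 min (colour and printed value) for each gene (rows) at each ischemia time (columns, minutes), with called values marked by an asterisk. Called values are found only in the 28 and 30 min columns, for Afmid, Kmo and Haao in both and for Kynu and Acmsd at 30 min.

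Comparisons without the sham kidneys addressed whether the genes moved gradually with ischemia time or in steps. Within 16 to 26 min no gene of the 9 was called for a slope by limma (lowest adjusted p = 0.618, none with an unadjusted p under 0.05), where 0.011% of all genes were called and 8.32% were under 0.05 before adjustment. None of the 9 was called between neighbouring times in that range, where 0% of the whole table was. Before adjustment Haao alone was under 0.05, at 26 against 24 min (limma, unadjusted 0.0388, adjusted p = 0.817), where 6.05% of all genes were.

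From 26 to 28 min only Haao of the 9 was called, with a log2 fold change of -1.10 ± 0.15 (limma adjusted p = 6.74e-05), where 1.06% of all genes were called lower. The 3 kidneys at 26 min held 90.3, 95.8 and 67.9 FPKM of Haao against 33.3 to 45.7 FPKM at 28 min. The call was lost without 26 min kidney 2 (-0.99) or 28 min kidney 1 (-0.98). Afmid (-0.92, adjusted p = 0.00196) and Kmo (-0.83, adjusted p = 0.00128) stayed under the fold threshold. Acmsd was not called either, at -0.98 ± 0.34 (adjusted p = 0.05), and ranged from -1.22 to -0.67 with each kidney left out in turn. Without 26 min kidney 3, which held the lowest Afmid, Acmsd and Haao of its group, Afmid (-1.16) and Acmsd (-1.22) were called. That kidney also had the lowest proximal tubule sum of its group, 3093 FPKM against 3754 and 4161 FPKM. Naprt (-0.46) and Nadsyn1 (-0.44) had adjusted p values of 0.00456 and 0.0106, Qprt (-0.33) had 0.13, Kynu (-0.27) had 0.525, and Nampt (0.02, 95% interval -0.34 to 0.38) had 0.986. From 28 to 30 min Kynu and Acmsd were called, 2 of 9 where 0.649% of all genes were called lower. Both of these calls were lost without 30 min kidney 3 or when only those 2 times were fitted, and the Acmsd call was also lost without 30 min kidney 2 (-0.99). Kmo (-0.81), Haao (-0.79), Qprt (-0.65) and Naprt (-0.53) were lower at 30 than at 28 min with adjusted p values between 0.00198 and 0.00728, under the fold threshold. Without 30 min kidney 3 the Qprt value was -0.41 (adjusted p = 0.0453). Nadsyn1 (-0.34) had an adjusted p of 0.0493, Afmid (-0.38) of 0.207 and Nampt (-0.10) of 0.799.

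With 28 and 30 min pooled against 16 to 26 min (6 against 18 kidneys), 4 of 9 were called lower where 2.4% of all genes were. The log2 fold changes were -1.75 ± 0.09 for Haao (limma adjusted p = 3.83e-12), -1.68 ± 0.20 for Acmsd (4.74e-07), -1.29 ± 0.11 for Afmid (5e-09) and -1.25 ± 0.09 for Kmo (9.42e-10). The same 4 genes were called under every alternative tried. Naprt (-0.75), Nadsyn1 (-0.60), Kynu (-0.60) and Qprt (-0.49) were lower with adjusted p values between 2.57e-09 and 0.00136, under the fold threshold. Nampt did not move detectably, at 0.08 with a 95% interval of -0.12 to 0.29 (adjusted p = 0.524).

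Against 16 min, the shortest clamp, Afmid (-1.07), Haao (-1.44) and Acmsd (-1.13) were called at 28 min, where 2.02% of all genes were called lower, and Kmo (-1.54) was called with them at 30 min, where 3.67% were. Without 16 min kidney 3, the kidney with the low Havcr1, Haao stayed called at 28 min (-1.36), while the calls of Afmid (-0.93) and Acmsd (-0.91) were lost. The Acmsd call at 28 min was also lost without 16 min kidney 2 or 28 min kidney 2 (adjusted p = 0.0513 and 0.0534). At 30 min all 4 calls were still made without 16 min kidney 3, and the smallest was that of Kmo (-1.30). Of the genes not called, Kmo (-0.74), Naprt (-0.39) and Nadsyn1 (-0.32) had adjusted p values of 0.00172, 0.00806 and 0.0359 at 28 min, where Kynu (0.22), Nampt (0.14) and Qprt (-0.03) had 0.583, 0.625 and 0.914. At 30 min Kynu (-0.94), Naprt (-0.92), Qprt (-0.68) and Nadsyn1 (-0.67) had adjusted p values between 9.07e-07 and 0.00467, and Nampt (0.04) had 0.904. Kynu passed the fold threshold at 30 min without 16 min kidney 1, 30 min kidney 1 or 30 min kidney 2 (-1.17, -1.05 and -1.09), and Naprt without 30 min kidney 1.

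To compare the genes with each other, the value of Qprt in the same kidney was subtracted from every gene before the same contrast of 28 and 30 min with 16 to 26 min, a comparison added after the data were seen. Relative to Qprt, Haao changed by -1.27 ± 0.12 (limma adjusted p = 6.7e-10) and Acmsd by -1.20 ± 0.17 (6.24e-07). Both were called, where 7.31% of all genes were called in either direction. Afmid (-0.80, adjusted p = 2.58e-06), Kmo (-0.76, 4.78e-07) and Naprt (-0.27, 0.00385) were lower than Qprt by less than the fold threshold. Nampt was higher relative to Qprt by 0.57 ± 0.14 (0.000396). Kynu (-0.12, 95% interval -0.38 to 0.15) and Nadsyn1 (-0.12, -0.31 to 0.08) did not differ detectably from Qprt. The drop was thus uneven across the genes. It was larger at Haao, Acmsd, Afmid, Kmo and, by a smaller amount, Naprt than at Qprt, and only Haao and Acmsd passed the fold threshold.

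**Figure D4:**
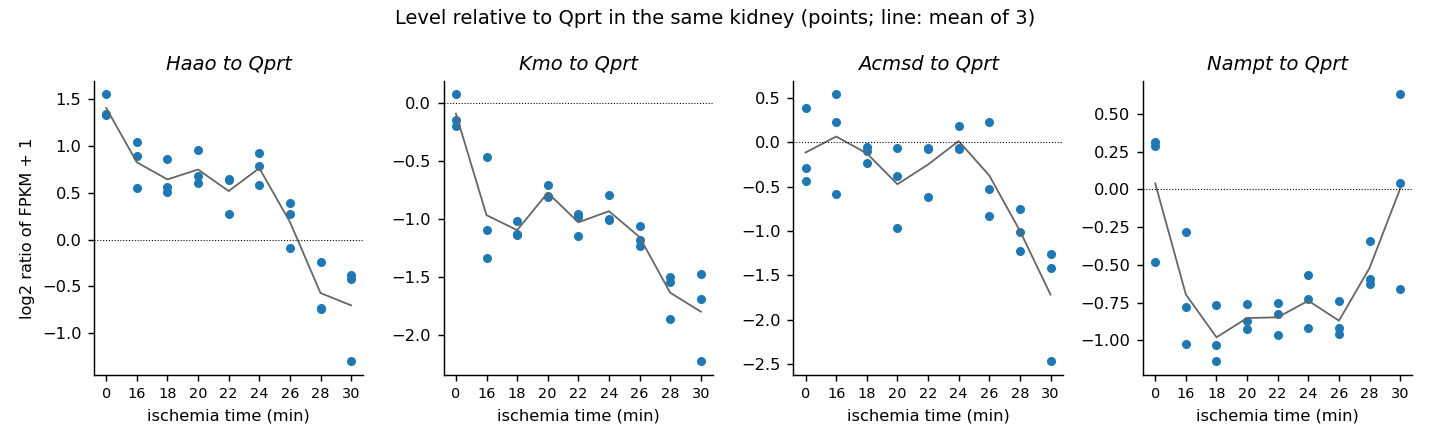
Log2 ratio of FPKM + 1 to that of Qprt in the same kidney (y axes) against ischemia time in minutes (x axes) for Haao, Kmo, Acmsd and Nampt; points are kidneys and lines join the means of 3. The mean ratios of Haao, Kmo and Acmsd lie lower at 28 and 30 min than at the shorter times, and that of Nampt lies higher than from 16 to 26 min.

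Of 44 other genes of tryptophan and NAD metabolism, listed by role and all tested, 11 were called lower and 1 higher at 28 min against 0 min, where 4.21% of all genes tested were called lower and 4.27% higher. At 30 min 12 were called lower and 1 higher, against 5.59% and 5.14% of all genes. Every call from 16 to 26 min was lower, and 2, 1, 0, 3, 2 and 5 of the 44 genes were called at the 6 times in turn, where 0.979%, 1.09%, 0.962%, 1.2%, 1.15% and 1.61% of all genes were called lower. At 20 min 23 of the 44 had an unadjusted p under 0.05 by limma, where 35.2% of all genes did. The median log2 fold change of the 44 at 30 min was -0.21 against 0.00 over all genes.

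Among the dioxygenases that start the route, Ido2 was at 6.79, 6.37 and 4.40 FPKM at 0 min and at 0.47 FPKM or less in all 6 kidneys at 28 and 30 min, a log2 fold change of -2.46 ± 0.22 at 28 min and -2.60 ± 0.22 at 30 min (limma adjusted p = 4.37e-08 and 9.14e-09). Tdo2, the liver enzyme, was at 0.12 FPKM or less and Ido1 at 0.21 FPKM or less at 0, 26, 28 and 30 min. Of the 4 aminotransferases that turn kynurenine into kynurenic acid, Aadat went from 208, 160 and 165 FPKM at 0 min to 12.1, 12.9 and 12.6 FPKM at 30 min (-3.69 ± 0.26, adjusted p = 5.9e-10), beside -2.60 for Haao. Kyat3 was at 34.8 FPKM in sham kidney 1 and at 47.9 and 51.5 FPKM in sham kidneys 2 and 3, those with high interferon response genes. With all 3 as the reference it was called at every time but 20 min, from -1.03 at 16 min (adjusted p = 0.000147) to -2.46 at 30 min. With sham kidney 1 as the only reference it was at -0.71, -0.85, -0.78 and -0.84 at 16, 18, 22 and 24 min and no longer called there, while the call at 26 min (-1.04) was still made. The 16 min call was also lost without 16 min kidney 2 (-0.84). Got2, the mitochondrial aspartate aminotransferase that shares this activity, was not called and was at 186 to 200 FPKM at 0 min and 207 to 226 FPKM at 30 min.

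Downstream of Acmsd, all 3 genes of the glutarate branch were called lower at 28 and 30 min: Gcdh (-1.26 and -1.67), Dhtkd1 (-1.71 and -2.07) and Aldh8a1 (-1.15 and -1.43). Dhtkd1, a subunit of the oxoadipate dehydrogenase, was also called at 22 and 24 min (-1.07 and -1.02), calls that were lost without sham kidney 1 (-0.98 and -0.92) and still made with it as the only reference (-1.25 and -1.20). The 22 min call was also lost without 22 min kidney 3 (-0.93), and the 24 min call without sham kidney 2 or 24 min kidney 1 (both -0.98). None of the 5 genes for the enzymes that join the mononucleotide to AMP and for the riboside kinases was called at 30 min, where Nmnat1 was at -0.31 and Nmrk1 at -0.71 (adjusted p = 0.00417 and 0.000659) and Nmnat3 at 0.42 (0.00382). Of the NADP genes, Nnt, the mitochondrial transhydrogenase, was called at 28 and 30 min (-1.29 and -1.85) and the mitochondrial kinase Nadk2 at 30 min (-1.12), while the cytosolic kinase Nadk was at 0.37 (adjusted p = 5.14e-06). Of 13 genes whose products consume NAD or nicotinamide, only the mitochondrial deacetylase Sirt3 was called, at 28 and 30 min (-1.44 and -1.60).

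Among the transporters, Slc22a13, a urate and nicotinate carrier, went from 62.1 to 63.7 FPKM at 0 min to 2.75 to 4.12 FPKM at 30 min (-3.94 ± 0.31, adjusted p = 3.55e-09), and Slc5a8, a monocarboxylate carrier, from 47.1 to 69.7 FPKM to 2.89 to 4.87 FPKM (-3.72 ± 0.24, 2.74e-10). Slc7a5, the large neutral amino acid carrier, was the only gene called higher, at 0.95 to 1.06 FPKM at 0 min and 3.63 to 6.88 FPKM at 30 min (1.48 ± 0.15, adjusted p = 1.02e-07). Slc6a19, an apical carrier of neutral amino acids, was called at 16 min (-1.04, adjusted p = 0.00261) and not at 30 min (-0.38, adjusted p = 0.152). Its 16 min call was lost without 16 min kidney 1 (-0.72), without sham kidney 2 (-0.93) and with sham kidney 1 as the only reference (adjusted p = 0.0644). None of the 6 kynurenine receptor genes and targets of the aryl hydrocarbon receptor was called at any time against 0 min. Ppargc1a, the coactivator known to support NAD synthesis in the tubule, was called at 28 min (-1.17, adjusted p = 6.64e-05) and 30 min (-1.08, 0.000122). Against 0 min, Ido2 (-1.145), Aadat (-1.42), Slc5a8 (-1.112) and Slc22a13 (-1.424) were already called lower at 26 min. Slc22a13 was also called at 22 min (-1.045), a call lost without 22 min kidney 3 (-0.81). From 26 to 28 min 4 of the 44 were called, all lower, where 1.06% of all genes were: Ido2 (-1.32), Aadat (-1.60), Slc5a8 (-1.94) and Slc22a13 (-1.84). With 28 and 30 min pooled against 16 to 26 min, those 4 and Kyat3 (-1.17) were called, where 2.4% of all genes were called lower.

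**Figure D5:**
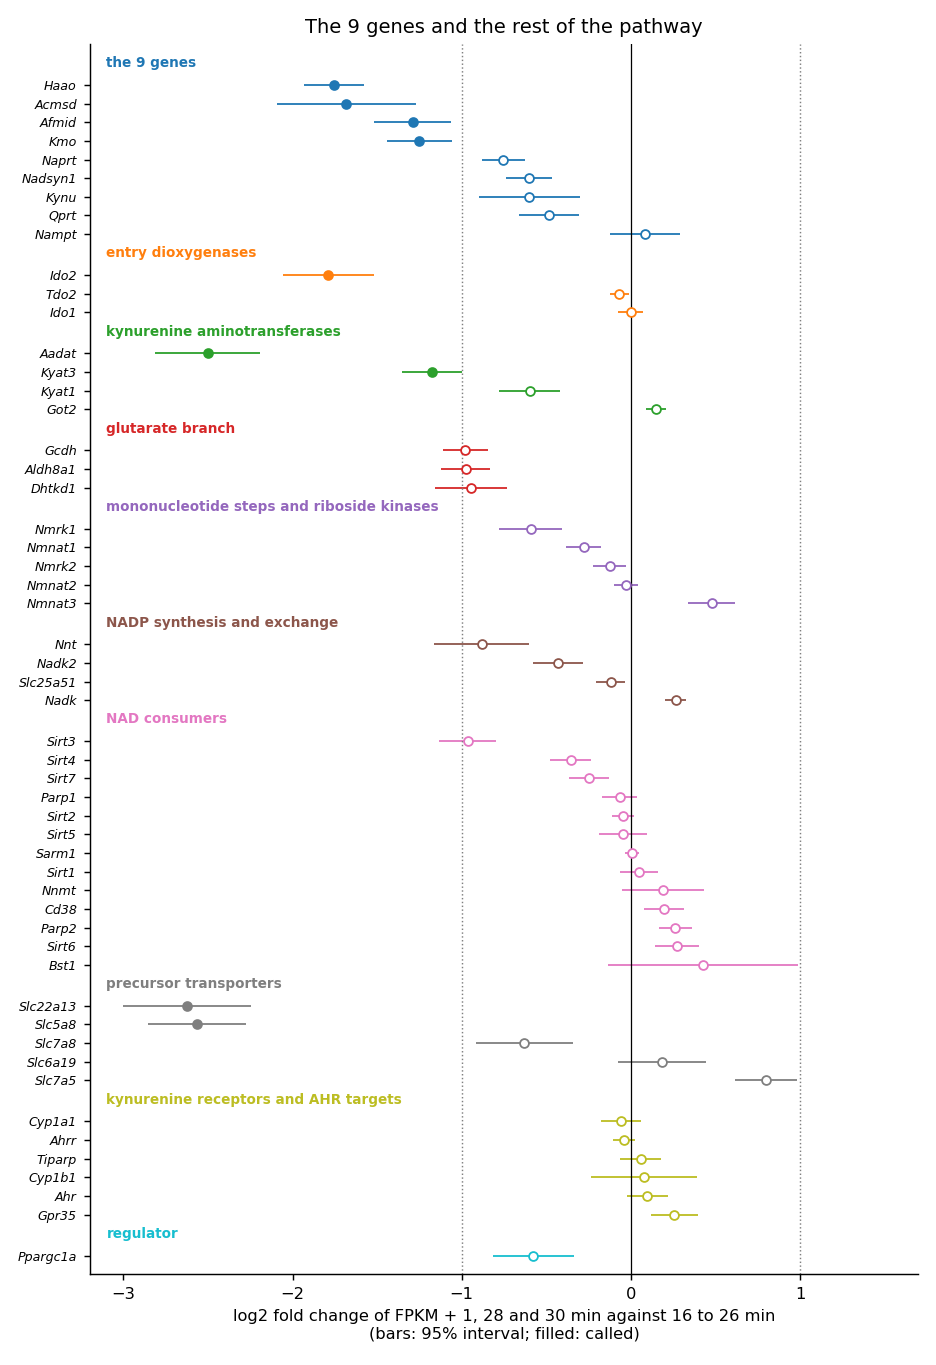
Log2 fold change of FPKM + 1 at 28 and 30 min against 16 to 26 min (x axis, 6 against 18 kidneys) for the 9 genes and the 44 other genes of the pathway (y axis, grouped by role); bars are 95% intervals, filled points are called, and dotted lines mark the fold threshold. Filled points lie to the left of the threshold for Haao, Acmsd, Afmid and Kmo and for Ido2, Aadat, Kyat3, Slc22a13 and Slc5a8.

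The genes whose mean log2 levels over the 9 ischemia times lay nearest to those of the 5 called genes were sought among 12345 genes after centring. Nearest to Haao were Hykk, a hydroxylysine kinase, Bphl, a hydrolase, and Acss2, an acetyl-CoA synthetase, with root mean square differences of 0.07 to 0.09 on the log2 scale. Kmo was followed most closely by Slc3a1 (0.06), a subunit of the cystine carrier, then Lyplal1 and Gk, and Afmid by Dcxr (0.07), the xylulose reductase, Apom and Slc28a1. Kynu (Akr1c20, Stra6 and Nox4) and Acmsd (Pfn3, Sypl2 and Fads2) had no gene nearer than 0.14 and 0.15.

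Of the cell type markers, those of proximal tubule and of loop and distal tubule were called lower mainly at 28 and 30 min. So were the called genes among the 9. Markers of tubular injury and fibroblasts were called higher from 16 min on. The summed level of the 8 proximal tubule markers was 1803 to 2031 FPKM at 28 min and 1121 to 1275 FPKM at 30 min, and 5 and 7 of the 8 were called lower against 0 min. None of the 8 was at 0 in a whole group. From 16 to 26 min the sum lay between 3093 and 4697 FPKM, and 1 of the 8 was called at each time. The 5 loop and distal tubule markers summed to 1902 to 2133 FPKM at 0 min and 654 to 936 FPKM at 28 min, with 4 of 5 called lower. At 26 min 2 of these 5 were already called lower. The 4 hepatocyte markers also had lower sums at the longest times. Their sum was 184 to 234 FPKM at 0 min, 44.7 to 62.9 FPKM at 28 min and 42.8 to 54.1 FPKM at 30 min. Of these 4, 2 were called lower at 28 min and 1 at 30 min. Of the 8 interferon response genes, 6 were called lower at each time from 16 to 28 min and 7 at 30 min, against the sham group with 2 high kidneys. Of the 4 collecting duct markers, 1 was called lower at each of 26, 28 and 30 min. By adjusted p under 0.05 alone (limma), 1, 3 and 2 of the 4 were lower at these times. The 4 tubular injury markers summed to 12.4 to 86.9 FPKM at 0 min, 68.9 to 1209.6 FPKM from 16 to 26 min and 2134 to 4911 FPKM at 28 and 30 min. All 4 were called higher at 16, 22, 26, 28 and 30 min, and 3 of them at 18, 20 and 24 min. The 4 fibroblast markers rose in sum from 31.1 to 34.9 FPKM at 0 min to 67.6 to 173 FPKM from 16 to 26 min, with 2 or 3 called higher, and stood at 33.6 to 100.2 FPKM at 28 and 30 min, with 2 called higher and 1 lower. None of the 3 podocyte, 4 endothelium and 4 T cell markers was called at any time against 0 min. The 5 neutrophil markers summed to 5.27 to 10.0 FPKM at 0 min and 19.0 to 27.4 FPKM at 30 min, with 2 of 5 called higher, and the 6 macrophage markers were at 56.9 to 68.0 FPKM and 70.5 to 115 FPKM, with 1 called lower and 2 higher at 30 min and 1 called higher at 16 min. The part of proximal tubule content and of infiltrating cells in the drop of the called genes among the 9 was not tested. At 30 min kidney 3 had a high loop and distal tubule sum. Its proximal tubule sum was the lowest of its group, 1121 FPKM against 1265 and 1275 FPKM. Its tubular injury sum was the highest, 4911 FPKM against 2508 and 3329 FPKM. Kynu, Qprt, Nadsyn1, Naprt, Kmo, Haao and Afmid were at the lowest of their group in that kidney. Without that kidney the pooled changes of Haao, Acmsd, Afmid and Kmo against 16 to 26 min were still called.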

How the data were processed

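RNA was sequenced by the authors on the DNBSEQ-G400 platform from 27 left kidneys, 3 per ischemia time. The deposited table gives FPKM values per gene and kidney, rounded to 2 decimals, 1 column per kidney; the submitters' processing notes name Bowtie2, RSEM and DESeq2 and build GRCm38.p6, while tool versions, the annotation and strandedness are not given in the sources used here. FPKM holds no counts, so depth is unknown and no count test was made; precision is limited by 3 kidneys per time. Groups were taken from the sample titles and the clamping times in the labels.

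Values were analysed as log2(FPKM + 1), quantile normalized between kidneys, in 1 limma 3.58.1 fit (R 4.3.3) with a mean per ischemia time over all 27 kidneys, for genes above 0 FPKM in at least 3 kidneys. A gene was called where its log2 fold change exceeded 1 in size and its p, adjusted over all genes, was under 0.05. Fold changes on this scale understate those of low genes. The code was tested on simulated data. The rule was to name every member in every comparison (within 16 to 26 min, where none was called, as counts), along with other pathway genes called against 0 min, at 28 against 26 min or at 28 and 30 against 16 to 26 min, and the 3 genes nearest to each called member with a mean of at least 1 FPKM. Exact tests of 3 against 3 kidneys cannot go below p = 0.1 and were not used. The members and gene lists were chosen with earlier results of these data known. Loci and the promoters of 6 members are from RefSeq (GRCm38.p6), exons and UTRs from GENCODE M21 (GRCm38). Promoters of the other 3 members are not reported here. Figures were drawn with matplotlib 3.10.9. Alternatives changed the pseudocount, scaling, filter, fitted groups, variance trend, replicate block and kidneys; sham kidney 1 alone, kidneys left out of comparisons with 16 min and of early pathway calls, and the comparison with Qprt were added after the data were seen.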

Additional observations from a re-analysis of the deposited data

How the results depend on the processing

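All 4 genes called at 28 and 30 min against 16 to 26 min stayed called under every alternative, and no scaling moved the median of all genes by more than 0.1. With 3 kidneys per time, differences under about 2-fold rest on few values. Without quantile normalization the number of other pathway genes called against 0 min was 0 at 16 min, 1 at 22 min and 1 at 24 min; with a constant sum per kidney it was 0 at 16 min and 2 at 18 min, and with a pseudocount of 0.1 FPKM it was 4, 1, 6 and 4 at 18, 20, 22 and 24 min. When only the groups compared were fitted it was 0 at 16 min, and 0 of the 9 genes were called at 30 against 28 min. With sham kidney 1 alone it was 1 at 16 min and 1 at 24 min, Kynu at 28 min against 0 min turned to 0.53, and Nampt to 0.0858 at 28 min and 0.0707 at 26 min. Kynu at 28 min against 0 min was also 0.0882 without quantile normalization and 0.0827 with a constant sum, and Nampt at 28 against 26 min was -0.00959 with a constant sum. Leaving out each kidney in turn gave -0.33 to 0.12 for Kynu at 28 min against 0 min, -0.0283 to 0.0925 for Nampt at 28 against 26 min and -0.18 to 0.00064 for Nadsyn1 relative to Qprt. Against 16 min it gave -0.0177 to 0.384 for Kynu, -0.11 to 0.0212 for Qprt and -0.00489 to 0.333 for Nampt at 28 min, and -0.105 to 0.233 for Nampt at 30 min. It gave 0 to 3 of the 9 genes called at 28 against 26 min, 0 to 2 at 30 against 28 min, 2 to 3 at 28 min and 4 to 6 at 30 min against 0 min, and for other pathway genes 0 to 4, 1 to 3, 0 to 1, 1 to 5 and 1 to 4 at 16, 18, 20, 22 and 24 min. The cause of these shifts was not tested. With a constant sum per kidney, 70.4% of the genes called at 16 min were higher, against 56.6% in the quantile normalized data.

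Replicate numbers did not pair the kidneys: 25 of 108 pairs of kidneys with the same number had correlated deviations above 0.1, and 8 of 27 kidneys were most like one of their own number. With the replicate number as a block, 3 of the 9 genes were called at 28 min and 5 at 30 min against 0 min, 1 at 28 against 26 min, 2 at 30 against 28 min and 4 at 28 and 30 min against 16 to 26 min, the same counts as without it.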
